A study of Mus musculus with 6 samples.

Results

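The transcription factors that keep muscle stem cells (MuSCs) in the myogenic lineage and drive them into differentiation were examined in MuSCs with and without *Sirt6*, which encodes a nuclear NAD-dependent histone deacetylase. The 9 genes are the paired box factors *Pax7* and *Pax3*, the myogenic regulatory factors *Myf5*, *Myod1*, *Myf6* and *Myog*, and the MADS box factors *Mef2a*, *Mef2c* and *Mef2d*. They were taken by gene symbol from a table of 25166 genes, in which all 9 were found. The rule uses no measured value, but the set was chosen with earlier results of these data known. Of these, 4 differed between the genotypes at an adjusted p of at most 0.05. *Pax7* and *Myod1* were lower in Sirt6mKO MuSCs, *Myf6* and *Mef2a* were higher, and *Pax3*, *Myf5*, *Myog*, *Mef2c* and *Mef2d* did not pass the test.

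The libraries came from MuSCs isolated by FACS from adult C57BL/6 mice and used without culture. The labels give 2 genotypes, Sirt6mKO (n = 3) and wild type (n = 3, named Ctrl here as in the sample titles). In Sirt6mKO mice a constitutively active Cre recombinase under the *Pax7* promoter (Pax7-ICNCre) removes floxed exons of *Sirt6* in both alleles. The study too writes of wild type MuSCs in this comparison, while 1 panel of a supplementary legend describes control mice as Cre-negative with floxed *Sirt6*, and under both descriptions only the Sirt6mKO mice carry the Cre. A *ROSA26-YFP* reporter was also used in breeding the Sirt6mKO line. The Cre at the *Pax7* promoter and the loss of *Sirt6* therefore cannot be told apart in any comparison, that of *Pax7* itself included. The figure legends of the study describe adult male mice, and the labels name no animals behind the libraries, so the p-values measure the spread between these samples, which may be technical in part.

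Each library was made from the total RNA of 100 to 200 sorted cells. The deposited values, called signal here, are reads per gene that were scaled by the size factor of each library and then rounded. Between 1267947 (Ctrl 3) and 3211528 (Ctrl 2) reads lay behind a library, so that 1 read stood for a signal of 0.729 to 1.79. Differences are given as log2 fold changes of signal + 1 fitted with limma, and p-values were adjusted over all 14227 genes whose mean signal reached 5. Of these genes 643 passed, 376 higher and 267 lower in Sirt6mKO, and the median log2 fold change of all genes was 0.002. *Sirt6* had a signal of 19, 20 and 13 in Sirt6mKO and of 18, 17 and 20 in Ctrl, with a log2 fold change of -0.10 (SE 0.29, adjusted p = 0.913). Since the table counts reads over the whole gene and only part of it was floxed, this value does not check the labels. Among the MuSC markers *Vcam1*, *Itga7* and *Cdh15* were present in every library. The summed signal of the 12 markers on the list, *Pax7* included, was 18232 to 20042 in Sirt6mKO and 18279 to 20756 in Ctrl. Similar sums do not mean that each marker was unchanged. The mean of *Pax7* was 1986 in Sirt6mKO and 3555 in Ctrl, and that of *Notch3* was 4222 and 2789 (adjusted p = 0.0562). Of these 12 markers 8 had a log2 fold change below 0 and 4 above, with a median of -0.105. By the test *Pax7* was lower and *Cd34* higher, and the other 10 did not pass. The methods give sorting for integrin alpha 7 and CD34 or for a fluorescent reporter as alternatives and do not say which gate was used for these libraries, so a difference in gate between the genotypes was not tested.

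In adult muscle PAX7 marks quiescent MuSCs and is needed to maintain them, while its paralog PAX3 acts mainly in embryonic progenitors and in a subset of adult MuSCs. PAX factors act upstream of the basic helix-loop-helix factors MYF5 and MYOD, which commit cells to the myogenic fate. MYOD rises when MuSCs are activated, and myogenin and MRF4, the product of *Myf6*, act in differentiation and in the mature fiber. These factors bind E-boxes as dimers with E proteins, and MEF2 proteins bind an A/T-rich element and act with them on muscle genes.

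Promoter sequences in RefSeq (GRCm38.p6, 250 bases before to 50 after the transcription start) were found for 6 of the 9 genes, in 8 windows. The windows were searched on both strands for the E-box CANNTG and for the MEF2 box. An E-box was present in 72.3% of all 32851 promoter windows and a MEF2 box in 3.2%. Among the 8 windows the *Myog* window had 2 E-boxes, 2 of the 3 *Mef2c* windows had at least 1, and the *Mef2a* window had the only exact MEF2 box. The windows of *Pax7*, *Myf5* and *Mef2d* held neither motif. The stretches of *Myog* and *Mef2a* are shown because they hold matches to the elements that members of these 2 families bind. *Myog* is given at chr1:134289754-134290003 on the plus strand, where the last bases already belong to the first exon in GENCODE, and *Mef2a* at chr7:67372851-67373108 on the minus strand, up to the end of the match that spans its start. Capitals mark the E-boxes in *Myog* and the MEF2 box in *Mef2a*, and the sequence is in lower case elsewhere.
*Myog*: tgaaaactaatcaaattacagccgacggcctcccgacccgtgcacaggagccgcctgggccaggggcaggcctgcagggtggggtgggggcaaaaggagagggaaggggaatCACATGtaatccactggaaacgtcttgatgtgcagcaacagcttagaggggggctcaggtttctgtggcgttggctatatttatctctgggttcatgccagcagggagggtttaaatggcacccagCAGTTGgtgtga
*Mef2a*: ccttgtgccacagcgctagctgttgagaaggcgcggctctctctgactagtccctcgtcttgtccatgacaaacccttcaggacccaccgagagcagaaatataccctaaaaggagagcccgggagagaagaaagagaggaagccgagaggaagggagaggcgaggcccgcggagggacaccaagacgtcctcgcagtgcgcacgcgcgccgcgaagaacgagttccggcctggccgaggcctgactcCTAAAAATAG
The first base of the *Myog* E-boxes lies at -138 and -12 from the RefSeq start, and that of the *Mef2a* match at -2. Near matches to the MEF2 box, such as ctatatttat in the *Myog* stretch, were not counted. A match describes these letters alone, and no binding was measured in these libraries.

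The 9 genes spanned a wide range of levels. In Ctrl libraries *Pax7* had the highest signal per kilobase of exon (607 ± 79.7, SD, n = 3), followed by *Myf5* (463 ± 46.1), the factor already transcribed in quiescent MuSCs. *Myog* (101 ± 34.7) and *Myod1* (79.9 ± 26.2) came next and overlapped each other. *Mef2d* stood at 43.0 ± 5.39 per kilobase and *Mef2a* at 16.2 ± 2.18, which overlapped with *Pax3* at 15.1 ± 3.23. *Myf6* (5.81 ± 1.21) and *Mef2c* (0.30 ± 0.16) were the lowest. In Sirt6mKO libraries the first 2 genes changed places, with *Myf5* at 452 ± 39.9 and *Pax7* at 339 ± 47.5 per kilobase, and their ranges did not overlap in either genotype. *Myf6* moved from below *Pax3* in Ctrl to above it in Sirt6mKO (23.8 ± 6.18 against 14.0 ± 2.03 per kilobase), and there its range overlapped that of *Mef2a* (27.0 ± 3.75).

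**Figure D1:**
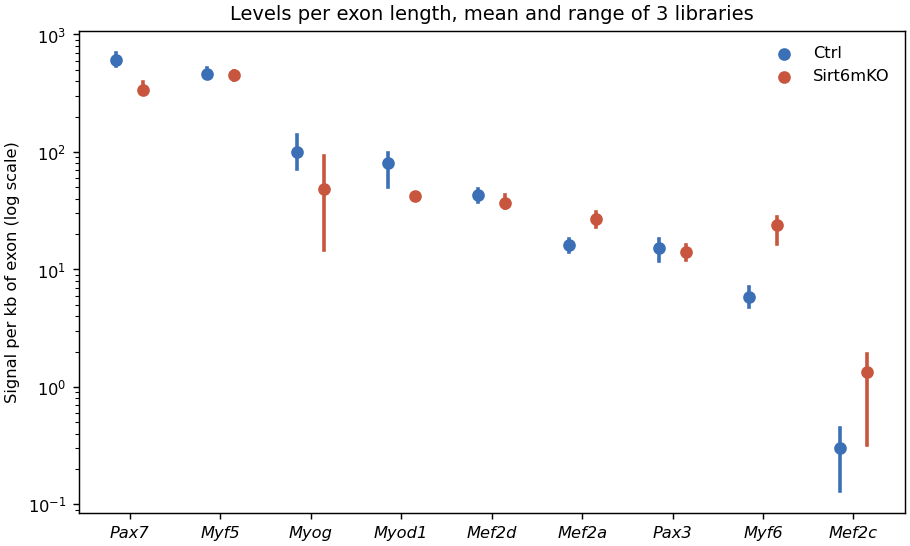
Signal per kilobase of exon (log scale) of the 9 myogenic transcription factors in Ctrl and Sirt6mKO MuSCs, ordered by their level in Ctrl. Points are the mean and vertical lines the range of 3 libraries per genotype. *Pax7* is the highest gene in Ctrl at a mean of 607 per kilobase, *Myf5* is the highest in Sirt6mKO at 452, and *Mef2c* is the lowest in both.

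Of the 9 genes 44.4% passed the adjusted p, where the share over all tested genes was 4.52% (2.64% higher and 1.88% lower in Sirt6mKO). Only *Myf6* also changed by at least 2-fold, a combination met by 2.59% of all tested genes. The libraries of the genotypes did not overlap for 4 of the 9 genes (44.4%), against 21.2% of all tested genes, and these were the 4 genes that passed the test. Without Sirt6mKO 1 the count of genes that passed fell from 4 to 1, *Pax7*. The median of the absolute log2 fold changes was 0.84 for the 9 genes and 0.22 over all tested genes. Their median log2 fold change was -0.09, with 3 genes above 0 and 6 below.

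**Figure D2:**
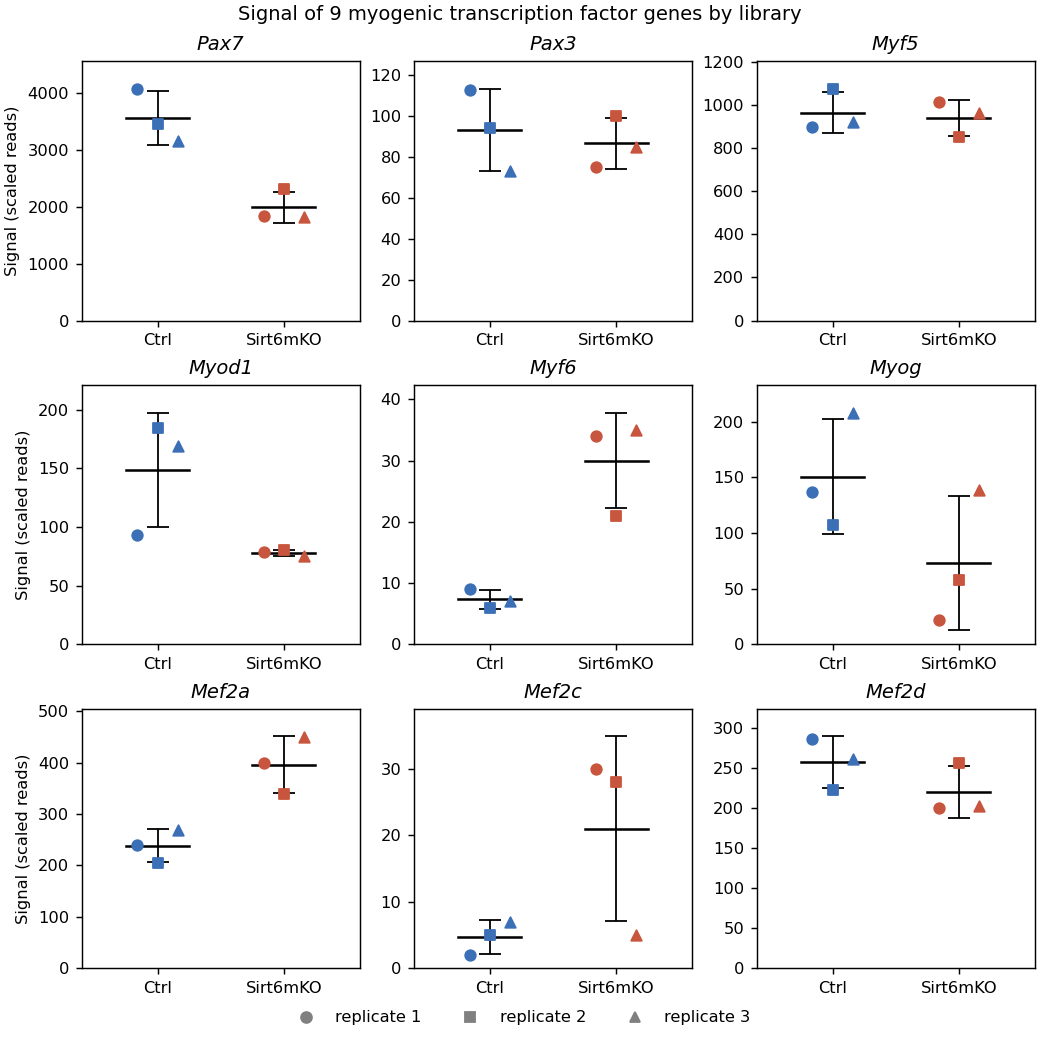
Signal (linear axes from 0, a scale of its own for each gene) of the 9 genes in the 3 Ctrl (blue) and 3 Sirt6mKO (red) libraries, with 1 point per library, its shape giving the replicate number, a bar at the mean and error bars of 1 SD. The points of the genotypes are separate for *Pax7*, *Myod1*, *Myf6* and *Mef2a* and overlap for the other 5 genes.

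*Pax7* (ENSMUSG00000028736) lies on the minus strand of chromosome 4, at 139737062 to 139833528 in GRCm38. Sirt6mKO libraries had a signal of 1841, 2307 and 1810, and Ctrl libraries one of 4066, 3449 and 3150. Each Sirt6mKO library was below each Ctrl library, with means of 1986 ± 278 and 3555 ± 467 (SD, n = 3 each). The log2 fold change was -0.84 (SE 0.13, 95% confidence interval -1.13 to -0.55, adjusted p = 0.00412), and the mean in Sirt6mKO was 0.559 times that in Ctrl. Between 1758 and 4732 reads per library lay behind these values, so that counting error was small beside the spread between libraries. Because RNA of sorted cells was measured in bulk, fewer cells expressing a gene and less RNA per cell cannot be told apart, here and for the genes that follow.

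*Pax3* (ENSMUSG00000004872, chromosome 1, 78101267 to 78197134, minus strand) did not pass the test. The Ctrl signal was 113, 94 and 73, and that in Sirt6mKO was 75, 100 and 85, and the groups overlapped. The log2 fold change of -0.09 had a confidence interval of -0.50 to 0.31 (SE 0.19, adjusted p = 0.856), which leaves out a change of the size fitted for *Pax7*. Ratios between the factors within a library are given as ratios of signal, without correction for exon length, so that only their change between genotypes is read. *Pax3* reached 4.07, 4.34 and 4.70% of the *Pax7* signal in Sirt6mKO, against 2.78, 2.73 and 2.32% in Ctrl, without overlap. This ratio was 0.75 higher on the log2 scale in Sirt6mKO, with an exact two-sided permutation p of 0.1, the smallest that 3 libraries against 3 can give. With *Pax3* near its Ctrl level, the ratio mainly restates the lower *Pax7* signal, a difference known before this test. It is therefore no separate result on *Pax3*.

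Of the commitment factors, *Myod1* passed the test and *Myf5* did not. *Myf5* (ENSMUSG00000000435, chromosome 10, 107482908 to 107486134, minus strand) had a signal of 1013, 850 and 960 in Sirt6mKO and of 897, 1074 and 921 in Ctrl. The groups overlapped, and the log2 fold change was -0.03 (SE 0.12, 95% confidence interval -0.28 to 0.22, adjusted p = 0.922). The interval for *Myf5* is the narrowest of the 9 genes and does not reach the change of *Pax7*. With *Pax7* lower and *Myf5* near its Ctrl level, the *Myf5* signal amounted to 55.0, 36.8 and 53.0% of that of *Pax7* in Sirt6mKO and to 22.1, 31.1 and 29.2% in Ctrl. The ratio was 0.81 higher on the log2 scale and did not overlap between the groups (exact permutation p = 0.1, two-sided). Like that of *Pax3*, it mainly restates the lower *Pax7* signal and is no separate result on *Myf5*.

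*Myod1* (ENSMUSG00000009471, chromosome 7, 46376474 to 46379099, plus strand), the factor associated with MuSC activation, had a signal of 79, 80 and 75 in Sirt6mKO and of 93, 184 and 169 in Ctrl. All 3 Sirt6mKO libraries were below all 3 Ctrl libraries, and they lay close together, with a coefficient of variation of 3.4% against 32.8% in Ctrl. The log2 fold change was -0.86 (SE 0.22, 95% confidence interval -1.34 to -0.38) at an adjusted p of 0.0449. This call is near the threshold. Leaving out any 1 library except Ctrl 1 ended it, with adjusted p-values of 0.119 to 0.177, whereas without Ctrl 1, the Ctrl library with the lowest *Myod1*, the log2 fold change was -1.17 (adjusted p = 0.00152).

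The *Myod1* signal relative to that of *Pax7* was 4.29, 3.47 and 4.14% in Sirt6mKO and 2.29, 5.34 and 5.37% in Ctrl. The 2 genotypes overlapped, and the ratio differed by -0.03 on the log2 scale (exact permutation p = 1.0, two-sided). Its sign turned when Sirt6mKO 2, Ctrl 2 or Ctrl 3 was left out, and it was -0.44 without Ctrl 1.

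**Figure D3:**
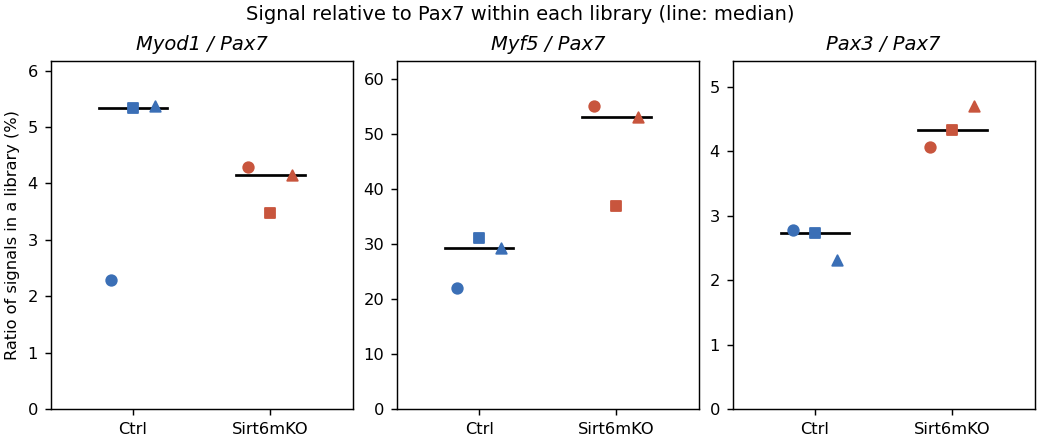
Signal of *Myf5*, *Myod1* and *Pax3* as a percentage of the *Pax7* signal of the same library, with 1 point per library and a bar at the median of the 3 libraries of each genotype. The Sirt6mKO libraries lie above the Ctrl libraries for *Myf5* (36.8 to 55.0% against 22.1 to 31.1%) and *Pax3* (4.07 to 4.70% against 2.32 to 2.78%), and the genotypes overlap for *Myod1*.

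*Myf6* (ENSMUSG00000035923), which encodes MRF4, lies 6718 bases from *Myf5* on chromosome 10, at 107492853 to 107494737 on the minus strand. Its signal stood at 34, 21 and 35 in Sirt6mKO, against 9, 6 and 7 in Ctrl, without overlap, from 28 to 41 reads per Sirt6mKO library and 4 to 8 reads per Ctrl library. On the scale of signal + 1 the log2 fold change of 1.88 was the largest of the 9 genes (SE 0.33, 95% confidence interval 1.16 to 2.59, adjusted p = 0.00679). The ratio of mean signals was 4.09, below the 4.50 of *Mef2c*. Without Sirt6mKO 1 the log2 fold change of *Myf6* was 1.77 (adjusted p = 0.0649). *Myf6* stood at 3.36, 2.47 and 3.65% of the *Myf5* signal in Sirt6mKO and at 1.00, 0.559 and 0.760% in Ctrl, a pair chosen after its values were seen and not tested.

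*Myog* (ENSMUSG00000026459, chromosome 1, 134289989 to 134292548, plus strand), the differentiation factor myogenin, varied the most between Sirt6mKO libraries. Sirt6mKO libraries had a signal of 22, 58 and 139, and Ctrl libraries one of 137, 107 and 208. Sirt6mKO 1 and 2 were below every Ctrl library, whereas Sirt6mKO 3 lay among them. Its coefficient of variation was 82.1% in Sirt6mKO and 34.4% in Ctrl. The log2 fold change of -1.35 had an SE of 0.48 and a confidence interval of -2.38 to -0.31, and with an adjusted p of 0.147 it did not pass. Without Sirt6mKO 3 it was -1.99 (adjusted p = 0.013).

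Of the MEF2 genes only *Mef2a* passed the test. *Mef2a* (ENSMUSG00000030557, chromosome 7, 67231163 to 67372858, minus strand) had a signal of 399, 339 and 449 in Sirt6mKO and of 240, 205 and 269 in Ctrl, without overlap. The log2 fold change was 0.73 (SE 0.14, 95% confidence interval 0.43 to 1.03, adjusted p = 0.0108), and the mean was 1.66 times that in Ctrl. The adjusted p was 0.0762 without Sirt6mKO 1 and 0.0528 without Sirt6mKO 3. *Mef2a* shares 302 exonic bases with *Lysmd4* on the other strand, and 2.56% of the 75-base windows of its transcripts occur in transcripts of another gene. Whether strand was used in counting is not given in the sources used here, so reads of the shared stretch cannot be assigned.

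*Mef2d* (ENSMUSG00000001419, chromosome 3, 88142372 to 88172086, plus strand) had a signal of 200, 257 and 203 in Sirt6mKO and of 287, 223 and 262 in Ctrl. The groups overlapped, and the log2 fold change was -0.23 (SE 0.14, 95% confidence interval -0.53 to 0.08, adjusted p = 0.444). It shares 531 exonic bases with the antisense gene 1700113A16Rik, and the share of its windows found in another gene was 7.29%. The *Mef2a* signal was 83.6, 91.9 and 103% of that of *Mef2d* in Ctrl and 200, 132 and 221% in Sirt6mKO, a pair chosen after its values were seen and not tested.

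*Mef2c* (ENSMUSG00000005583, chromosome 13, 83504034 to 83667080, plus strand), a MEF2 gene prominent in differentiating and mature muscle, was near the detection limit. The Ctrl signal was 2, 5 and 7, and that in Sirt6mKO was 30, 28 and 5. Sirt6mKO 1 and 2 had 36 and 38 reads, while Sirt6mKO 3 had 5 and the Ctrl libraries had 2, 7 and 4. The groups overlapped through Sirt6mKO 3, and the log2 fold change of 1.74 (SE 0.62, 95% confidence interval 0.41 to 3.08) did not pass at an adjusted p of 0.147. Without that library it was 2.52 (adjusted p = 0.0196). For *Pax3*, *Myf5*, *Myod1*, *Myf6*, *Myog*, *Pax7* and *Mef2c* no 75-base window was shared with another gene.

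**Figure D4:**
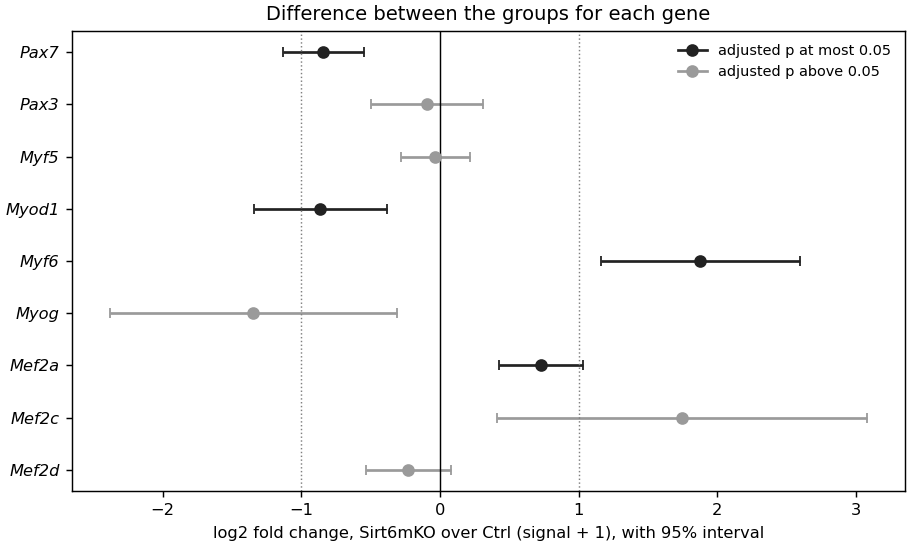
Log2 fold change (Sirt6mKO against Ctrl, on the scale of signal + 1) of the 9 genes with 95% confidence intervals from limma, 3 libraries per genotype. Genes that passed the adjusted p are in black and the others in grey, and dotted lines mark a 2-fold change. *Pax7* (-0.84) and *Myod1* (-0.86) lie below 0 and *Myf6* (1.88) and *Mef2a* (0.73) above it as the genes that passed the adjusted p, and the intervals of *Myog* and *Mef2c* are the widest.

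Mature myofibers also express *Myf6*, *Mef2a* and *Mef2c*, so their markers were read in the same libraries. The summed signal of 16 myofiber markers was 4085, 4374 and 2424 in Sirt6mKO and 1750, 1801 and 1898 in Ctrl, without overlap, and 5 of the 15 tested were higher (*Acta1*, *Mylpf*, *Actn3*, *Ttn* and *Neb*), where 2.64% of all tested genes were higher. The other 10 did not pass, among them *Myh1* with 0.08 (adjusted p = 0.906) and *Myh2* with -0.74 (adjusted p = 0.506) as log2 fold changes, and the median of the 15 was 0.90. *Acta1*, the skeletal muscle actin gene, had a signal of 548, 656 and 143 in Sirt6mKO and of 118, 131 and 93 in Ctrl. *Mef2c* was likewise high in Sirt6mKO 1 and 2 and low in Sirt6mKO 3. *Myf6* and *Mef2a* did not, since Sirt6mKO 3, the Sirt6mKO library with the lowest myofiber sum, had their highest signals, 35 and 449. The part of fiber RNA in these results was not tested.

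Other cell types were read in the same way. Of the 8 tested fibroblast markers 3 were higher in Sirt6mKO (*Pdgfra*, *Col1a1* and *Col1a2*), and all 8 had a log2 fold change above 0, with a median of 1.61. *Col1a2* was at 782, 1299 and 1162 in Sirt6mKO and at 173, 63 and 65 in Ctrl (log2 fold change 3.55, adjusted p = 8.51e-05). The summed signal of the 10 listed was 9470 to 11586 in Sirt6mKO and 6562 to 10220 in Ctrl, most of it from *Col3a1* (log2 fold change 0.06, adjusted p = 0.898). The 6 tenocyte markers summed to 61, 1070 and 406 in Sirt6mKO and to 50 to 75 in Ctrl, with *Thbs4* the most abundant. All 6 were tested and none passed, *Thbs4* included (adjusted p = 0.0747). The fit put 5 of them higher in Sirt6mKO and 1, *Mkx*, lower (-1.12 on the log2 scale). No endothelial, mural, Schwann, immune or erythroid marker passed the test. Those tested were 3 of 7 endothelial, 7 of 8 mural, 4 of 7 Schwann, 1 of 8 immune and 5 of 6 erythroid markers, and the rest could not pass. *Ly6a*, *Cldn5*, *S100b* and *Cd14* had at most 3 reads in every library, and no listed marker was at 0 in all 6. The sum of 8 mural markers was 4365 to 5460 in Sirt6mKO and 2820 to 3882 in Ctrl, most of it from *Notch3*, which MuSCs express too. In Sirt6mKO and Ctrl respectively, endothelial markers, most abundant of them *Tek*, summed to 390 to 467 and 477 to 583, Schwann markers (*Ncam1*, which MuSCs share) to 2432 to 2596 and 2149 to 2481, and the 4 immune markers analysed (*Cd68* the most abundant) to 39 to 78 and 37 to 65. Erythroid markers (*Hba-a1*) summed to 13 to 60 and 23 to 545, the highest in Ctrl 2. Their part in the values of the 9 genes was not tested.

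**Figure D5:**
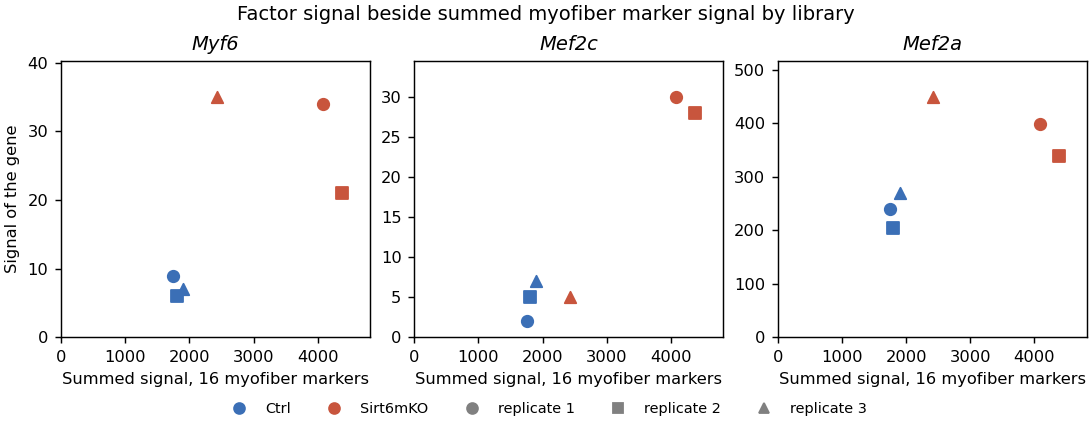
Signal of *Myf6*, *Mef2c* and *Mef2a* (linear axes) against the summed signal of 16 myofiber markers in each of the 6 libraries, with 1 point per library, Ctrl in blue and Sirt6mKO in red. The 3 Sirt6mKO libraries have the 3 highest sums (2424 to 4374), and at the lowest of these *Mef2c* is at 5 while *Myf6* and *Mef2a* are at 35 and 449.

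The genes around these factors were read from 6 lists with 116 different genes, of which 98 were tested. Of these 12 passed the test (12.24%, against 4.52% of all tested genes), 10 higher and 2 lower in Sirt6mKO (2.64% and 1.88% of all tested genes), with a median log2 fold change of 0.03. The shares over all genes are the background of each count that follows, and the lists too were chosen with earlier results known. Without Sirt6mKO 2 the count was 4. In the network upstream of the PAX and myogenic regulatory factors, 1 of 15 tested genes was lower and none higher. This was *Sox8*, a SOX factor expressed in MuSCs, with a signal of 189, 206 and 192 in Sirt6mKO and of 400, 516 and 436 in Ctrl (log2 fold change -1.19, SE 0.12, adjusted p = 0.000204). *Nfix*, the most abundant gene of that list, had a log2 fold change of 0.12 (adjusted p = 0.763).

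Among partners of the basic helix-loop-helix factors, 1 of 14 tested genes was higher and none lower. *Id3*, which encodes an inhibitor that captures E proteins, had a signal of 228, 311 and 296 in Sirt6mKO and of 207, 135 and 133 in Ctrl (log2 fold change 0.83, SE 0.18, adjusted p = 0.0216). Leaving out Sirt6mKO 2 or 3 or Ctrl 2 or 3 ended this call, with adjusted p-values of 0.0714 to 0.128. The E-box repressor *Zeb2* was the most abundant of the list and had a log2 fold change of 0.09 (adjusted p = 0.731).

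Of the partners of MEF2 and the class IIa histone deacetylases, 2 of 20 tested genes were higher and 1 lower. *Hdac5*, whose product binds and represses MEF2 proteins, had a signal of 134, 201 and 176 in Sirt6mKO and of 95, 88 and 84 in Ctrl (log2 fold change 0.91, SE 0.16, adjusted p = 0.00745). *Mamstr*, a MEF2 co-activator gene, was at 67, 72 and 58 in Sirt6mKO and at 161, 180 and 122 in Ctrl (log2 fold change -1.21, SE 0.17, adjusted p = 0.00198). The adjusted p of *Hdac5* was 0.0573 without Sirt6mKO 2. *Vgll3*, which encodes a TEAD co-factor, was higher by 0.51 on the log2 scale (adjusted p = 0.0279). Its call held at only 2 of 6 omissions of a library, and the adjusted p-values of the 6 were 0.0491 to 0.111. The groups did not overlap for these 3 genes. *Crebbp*, the most abundant, had a log2 fold change of 0.01 (adjusted p = 0.982). None of the 16 tested chromatin co-factors of PAX7 and MYOD passed, and *Kmt2a*, the most abundant, stood at -0.13 (adjusted p = 0.612).

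Of 10 genes listed as PAX3 and PAX7 targets, 3 were higher and none lower in Sirt6mKO. These were *Itm2a* (log2 fold change 0.70, adjusted p = 0.0321), *Cd34* (0.60, adjusted p = 0.0309) and *Id3*. *Itm2a* stood at 1461, 1180 and 1753 in Sirt6mKO, against 983, 1021 and 708 in Ctrl. *Cd34* was at 690, 855 and 882 in Sirt6mKO and at 439, 605 and 563 in Ctrl, and it encodes a surface protein used in 1 of the alternative gates. Leaving out Sirt6mKO 1 or 3 or Ctrl 3 ended the call of *Itm2a* (adjusted p of 0.0928 to 0.153), and leaving out any Sirt6mKO library or Ctrl 1 ended that of *Cd34* (0.0521 to 0.146). *Fgfr4*, the most abundant of the list, had a log2 fold change of -0.05 (adjusted p = 0.886).

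Among early differentiation targets of the myogenic regulatory and MEF2 factors 5 of 26 tested genes were higher and none lower, with a median log2 fold change of 0.43. Higher were *Ttn* (0.90, adjusted p = 0.0103), *Mylpf* (2.15, adjusted p = 0.0182), *Des* (0.59, adjusted p = 0.0257), *Neb* (0.89, adjusted p = 0.0306) and *Acta1* (1.71, adjusted p = 0.0355). The members of this list that passed encode structural proteins of the sarcomere and the intermediate filament desmin, and 4 of the 5 stand on the myofiber list as well. *Des*, the most abundant, had a signal of 2483, 2026 and 2433 in Sirt6mKO and of 1516, 1794 and 1309 in Ctrl. None of these 5 calls held at every omission of a library. Without Sirt6mKO 1 all 5 were lost (adjusted p of 0.0801 to 0.221), without Sirt6mKO 2 all but *Des* (0.0753 to 0.189), without Sirt6mKO 3 *Des* alone (0.0954), without Ctrl 1 *Des* and *Acta1* (0.0606 and 0.0736), without Ctrl 2 *Mylpf*, *Neb* and *Acta1* (0.0711 to 0.0867), and without Ctrl 3 *Des* and *Acta1* (0.0775 and 0.111).

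The genes whose pattern over the 6 libraries was most like that of *Pax7* were found by the root mean square difference in log2(signal + 1), centred on each gene's mean, among 7393 genes whose mean signal reached 50. The smallest difference was 0.0288 for *Pcdhb11*, a clustered protocadherin gene. Its signal stood at 43, 54 and 40 in Sirt6mKO, against 92, 80 and 73 in Ctrl, and the order of the libraries was that of *Pax7* within each genotype. *Amigo1* (0.111), *Rasal2* (0.116), *Dzip1* (0.118) and *Fhad1* (0.123) came next. *Fhad1* lies on chromosome 4 as *Pax7* does, at 141890438 to 142015082, and a link between their positions and their likeness was not tested. All 5 genes had separate groups and were lower in Sirt6mKO, which the choice by likeness to *Pax7* fixes, so no test is given.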

How the data were processed

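RNA-seq of freshly isolated MuSCs from Sirt6mKO (n = 3) and Ctrl (n = 3) mice was analysed. The submitters' processing notes name Trimmomatic 0.39, STAR 2.7.10a, Picard 2.25.5, featureCounts 2.0.2, DESeq2 1.30.1 and mm10 (GRCm38), whereas the methods of the study name Reaper and other versions. Per the labels, ribosomal RNA was removed with RiboGone and libraries were made with a SMARTer kit that keeps strand, with single reads of 75 bases, where the methods name another kit. Whether strand was used in counting is not given in the sources used here. The deposited signal is reads divided by a size factor per library and rounded by the authors, so a test for counts was not used. The factors, 0.558 to 1.372, were read from the spacing of values up to 60. Only factors with which whole reads reach nearly all of these values were admitted, so that reach is no check on them. Multiplying the signal by the factors and rounding gave the reads quoted. These are approximate, since the signal had been rounded and the factors were estimated.

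log2(signal + 1) was fitted with limma 3.58.1 in R 4.3.3 (trended empirical Bayes, both groups in 1 fit, no covariate) for genes whose mean signal reached 5. Benjamini-Hochberg adjustment covered all tested genes. A call needs an adjusted p of 0.05 or lower, and a second rule, after the study's methods, also asks for a 2-fold change. Since fold changes are on the log2(signal + 1) scale, they understate those of low genes. Ratios were compared with exact two-sided permutation tests in scipy 1.17.1. The fit was tested on simulated data with 3 libraries against 3 and 50 changed genes at each size. It found 38% of 1.5-fold, 76% of 1.8-fold, 80% of 2-fold and 96% of 4-fold changes, so smaller changes can be missed. Exon lengths came from GENCODE, in which 99.7% of identifiers were found, and promoters from RefSeq. Alternatives changed the scaling, filter, pseudocount, empirical Bayes, replicate block, model (limma voom on recovered reads) or call rule, or left out 1 library.

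Besides the 9 factors and *Sirt6*, genes were named if they passed the test in a pathway list (up to 6), were the most abundant of a pathway or marker list, or were among the 5 nearest to *Pax7*; marker genes at 0 in every library were to be named too. Other markers, among them the 4 at or under 3 reads, were chosen after their values were seen. The factors and lists were chosen with earlier results of these data known. The dystrophic samples and other assays of the study were not analysed here.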

Additional observations from a re-analysis of the deposited data

How the results depend on the processing

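*Pax7* passed the threshold under all 18 alternatives (log2 fold change -0.95 to -0.74), *Myf6* under 16 of 17, *Mef2a* under 16 of 18, *Myod1* under 10 of 18, *Myog* under 2 of 18 and *Mef2c* under 1 of 17, while *Pax3*, *Myf5* and *Mef2d* passed under none. *Myod1* also missed it with no filter (adjusted p = 0.0836), a mean signal of at least 50 (0.0542) and a pseudocount of 0.1 (0.0546). Of the 9 factors 4 passed, against 2 of those left at a mean signal of at least 50, 1 when a 2-fold change was required and 1 to 4 when 1 library was left out. Of all genes 376 were higher and 267 lower. These were 220 and 164 at a mean signal of at least 50 (fewer genes tested), 223 and 145 with a 2-fold change, and 127 to 443 and 106 to 240 when 1 library was left out, fewest higher without Sirt6mKO 2 (127) and fewest lower without Sirt6mKO 1 (106). Without Sirt6mKO 3 the counts were 216 and 166, and without Ctrl 2 they were 250 and 134. Of the pathway list genes 12 passed, against 7 with no filter, 4 with a 2-fold change and 4 to 13 when 1 library was left out. *Mylpf* and *Acta1* missed the threshold with limma voom (0.0573 and 0.067), and *Neb* and *Acta1* with robust empirical Bayes (0.0744 and 0.305). The cause was not tested.

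Direction turned only for values near 0. When 1 library was left out, *Sirt6* ranged from -0.205 to 0.087, *Pax3* from -0.257 to 0.054 (0.005 without Sirt6mKO 1), *Myf5* from -0.089 to 0.046 (0.037 without Sirt6mKO 2), *Nfix* from -0.050 to 0.261, *Fgfr4* from -0.162 to 0.049 (0.020 without Ctrl 2), *Col3a1* from -0.087 to 0.197 (-0.033 without Sirt6mKO 3), *Crebbp* from -0.055 to 0.068 (-0.006 without Ctrl 1), and the *Myod1* to *Pax7* ratio from -0.437 to 0.178 (0.065 without Sirt6mKO 2 and 0.173 without Ctrl 2). *Crebbp* was also -0.006 with upper quartile scaling and -0.010 with equal totals.

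With the replicate block, 5 of the 9 factors passed (*Myog* added, adjusted p = 0.0263), 481 genes were higher and 333 lower, and 15 pathway list genes passed. Libraries that share a number deviated together with correlations of 0.023, 0.066 and 0.188. Sirt6mKO 1 correlated best with Ctrl 2 (0.073). Sirt6mKO 2 correlated best with Ctrl 2 (0.066, against 0.063 with Ctrl 1), and Sirt6mKO 3 with Ctrl 3 (0.188). These correlations are low and the labels name no animals, so the numbers were not taken as pairs. At 3 libraries a group, and with 1 read worth up to a signal of 1.79, depth limits *Myf6* and *Mef2c* in Ctrl.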
